A study of Mus musculus with 15 samples.

Results

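Skin that received the alkylating agent CEES and then the HSP90 inhibitor SNX-5422 was compared with skin that received the vehicle alone, to describe how far treated, injured skin still differed from uninjured skin. The members were the 6 samples of these 2 groups, of 15 in the series, chosen by their treatment labels. The mice were male SKH-1 hairless animals, and total RNA of their dorsal skin was sequenced 24 h after topical application. In the SNX-5422+CEES group (3 samples) CEES (2-chloroethyl ethyl sulfide) was given at 2 mg per mouse, equal to 500 µg/cm2, and SNX-5422 at 20 mg/kg was applied to the same area 15 min later. The CEES group (3 samples) received the agent without the inhibitor and is set beside the comparison where it bears on it. The Control group (3 samples) received the ethanol vehicle. Each application covered 2 × 2 cm in 30 µL. No group received SNX-5422 without an agent, so what the inhibitor does to uninjured skin was not measured. The other 6 samples received phenylarsine oxide, with or without SNX-5422, and are not compared here. They entered the filter on low counts, the scaling, the estimate of the spread and the principal components.

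CEES is a monofunctional analog of sulfur mustard. It alkylates DNA, protein and glutathione, and in skin it damages basal keratinocytes and sets off swelling and an influx of neutrophils and macrophages. HSP90 is a chaperone that keeps many kinases and transcription factors in an active fold, among them kinases of the NF-kB pathway, and its inhibition usually releases heat shock factor 1 and raises heat shock genes. Injured epidermis answers with a known programme in which keratinocytes switch on keratins 6 and 16, small proline-rich proteins and antimicrobial peptides, while dermal fibroblasts lay down new matrix.

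Promoters of 3 genes are shown because each represents a group whose values follow, the interferon-stimulated, NF-kB and sterol-controlled genes. The sequences are RefSeq promoter windows of the GRCm38.p6 build, 300 bases each, printed 5′ to 3′ on the strand of the gene. Capitals mark every match, on either strand, to the letters named. Ifit1, an interferon-stimulated gene, lies at chr19:34640639-34640938 (+) and holds the interferon-stimulated response element letters GAAANNGAA 3 times. The outermost matches begin 109 and 84 bases before the start, and only the first of these overlaps the middle match. Cxcl1, a neutrophil chemokine, lies at chr5:90890995-90891294 (+) and holds the NF-kB letters GGGANTTNC at 71 bases before the start. Hmgcs1, an early enzyme of cholesterol synthesis, lies at chr13:119690101-119690400 (+) and holds the sterol regulatory element letters TCACNCCAC at 137 bases before the start. Ifit1 and Hmgcs1 were chosen after their values were seen.
Ifit1: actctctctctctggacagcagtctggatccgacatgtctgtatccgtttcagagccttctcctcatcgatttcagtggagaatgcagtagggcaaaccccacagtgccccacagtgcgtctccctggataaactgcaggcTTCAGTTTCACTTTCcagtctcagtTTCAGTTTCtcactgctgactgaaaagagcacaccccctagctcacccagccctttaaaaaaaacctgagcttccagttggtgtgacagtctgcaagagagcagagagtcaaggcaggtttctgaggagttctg
Cxcl1: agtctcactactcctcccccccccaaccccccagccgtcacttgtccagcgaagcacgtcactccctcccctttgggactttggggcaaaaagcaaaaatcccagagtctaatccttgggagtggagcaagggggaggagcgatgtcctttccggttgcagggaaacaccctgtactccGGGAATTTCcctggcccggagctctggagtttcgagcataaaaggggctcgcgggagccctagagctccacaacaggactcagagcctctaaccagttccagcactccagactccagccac
Hmgcs1: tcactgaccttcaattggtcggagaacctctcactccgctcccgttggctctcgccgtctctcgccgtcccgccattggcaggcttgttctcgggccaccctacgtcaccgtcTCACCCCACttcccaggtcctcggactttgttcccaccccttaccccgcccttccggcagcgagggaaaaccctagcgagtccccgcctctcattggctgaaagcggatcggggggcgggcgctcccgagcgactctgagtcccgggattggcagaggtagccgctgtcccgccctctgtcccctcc
The response element was present in 10 of the 15 interferon-stimulated genes with a window (66.7%), against 2638 of 27025 genes (9.76%). The NF-kB letters were found in 4 of 13 neutrophil chemokine and interleukin genes (30.8%), namely Cxcl1, Cxcl2, Cxcl3 and Il6, against 1336 of all genes (4.94%). The sterol element letters were found in 1 of 15 cholesterol synthesis genes (6.67%), which was Hmgcs1, against 388 of all genes (1.44%). A match is a description of the letters in the window and no measure of binding.

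SNX-5422+CEES skin differed from Control skin in 5035 of 22529 genes tested (22.3%) at an edgeR quasi-likelihood adjusted p under 0.05. Of these, 2951 were higher (13.1% of genes tested) and 2084 lower (9.25%), and under upper-quartile scaling the split was 2501 higher and 2861 lower. The change passed 2-fold for 1220 raised (5.42%) and 671 lowered genes (2.98%). Against CEES skin, the same SNX-5422+CEES libraries differed in 1576 genes (7.00%), 797 higher (3.54%) and 779 lower (3.46%). That split was 521 higher and 1266 lower under total-count scaling, which moved the median gene to -0.098, against 0.011 with TMM scaling. CEES skin differed from the same Control libraries in 7640 genes (33.9%), 4000 higher (17.8%) and 3640 lower (16.2%), or 5049 higher and 2409 lower under total-count scaling. These 3 comparisons share libraries, and their values are given side by side without a test of their overlap. The median gene changed by 0.0011 on the log2 scale between SNX-5422+CEES and Control skin. Without SNX-5422+CEES 2 the count against Control was 3268, the lowest of the leave-one-out values, and against CEES it was 806 without SNX-5422+CEES 3, 878 without SNX-5422+CEES 2, 1002 without CEES 2 and 928 without CEES 3.

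**Figure D1:**
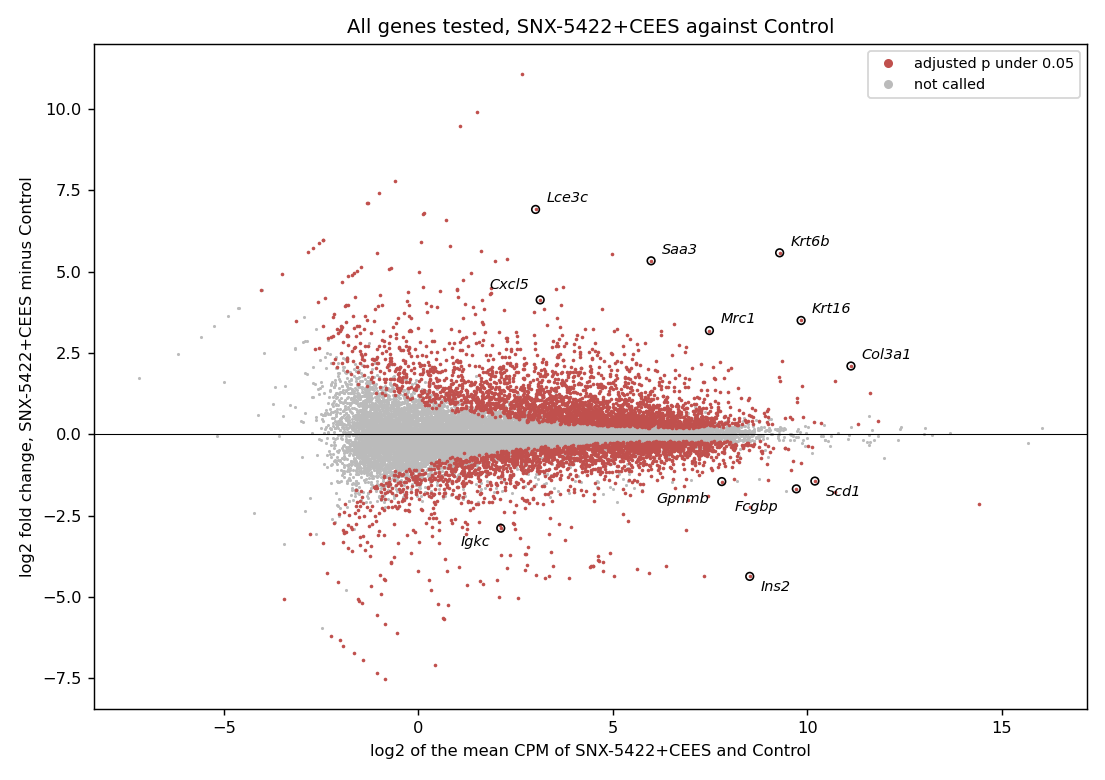
Log2 fold change of SNX-5422+CEES minus Control (vertical axis) against mean level in log2 CPM (horizontal axis) for the 22529 genes tested, with the 5035 called genes in red. The wound keratin Krt6b stands among the most raised genes of high level, at 5.58, and the pancreatic transcript Ins2 among the most lowered, at -4.37.

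Among called genes of at least 5 CPM in a group, without overlap between SNX-5422+CEES and Control, the 10 largest rises by fold were Lce3d, Lce3c, Fgf23, Krt6b, Chil3, Saa3, Ms4a4a, Il24, Pf4 and Stfa2, genes of epidermis, leukocytes, platelets and the acute phase for the most part. Fgf23, a hormone of phosphate balance made mainly in bone, had 2.76, 8.53 and 6.50 CPM in SNX-5422+CEES skin, 15.8, 25.00 and 17.8 CPM in CEES skin and 0.161, 0.139 and 0.0649 CPM in Control skin, at 5.64 ± 0.73 (SE, edgeR adjusted p = 6.21e-05) against Control. Chil3, a chitinase-like protein of activated macrophages, had 6.02, 12.1 and 10.2 CPM in SNX-5422+CEES skin, 19.5, 23.5 and 19.2 CPM in CEES skin and 0, 0.232 and 0.357 CPM in Control skin, so that SNX-5422+CEES lay between the other groups, at 5.38 ± 0.62 (SE, edgeR adjusted p = 2.42e-05) against Control and -1.14 ± 0.40 (SE, edgeR adjusted p = 0.104) against CEES, a difference called with only the 2 groups in the fit (adjusted p = 0.014) or no filter (0.000643). Among the 5 largest falls in CPM was Lars2, the mitochondrial leucyl-tRNA synthetase, with 1146, 447 and 679.8 CPM in SNX-5422+CEES skin, 251, 339.7 and 1264 CPM in CEES skin and 2687, 2179 and 2864 CPM in Control skin, at -1.77 ± 0.49 (SE, edgeR adjusted p = 0.0161) against Control. This call was lost without SNX-5422+CEES 2 (adjusted p = 0.0782) or 3 (0.0661). The gene ENSMUSG00000119584, left unnamed in the tables used and chosen after its values were seen, was among the most abundant, with 13093, 4678 and 6487 CPM in SNX-5422+CEES skin, 2711, 3385 and 14997 CPM in CEES skin and 39333, 26452 and 41286 CPM in Control skin, at -2.14 ± 0.53 (SE, edgeR adjusted p = 0.008) against Control. The libraries of these groups ranked in the same order in Lars2 and in this gene. Whether the reads counted for Lars2 came from the synthetase transcript was not tested.

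The libraries held 16838000 to 28887000 counts on genes. The first principal component was taken over all 15 libraries and held 35.9% of the variance. It placed SNX-5422+CEES libraries at 29.7 to 49.3, CEES libraries at 64.5 to 78.3 and Control libraries at -54.1 to -40.1. CEES 2 stood apart from the other CEES libraries in some transcripts. The suprabasal keratin Krt1 had 811 CPM in CEES 2, against 1503 CPM in CEES 1 and 1516 CPM in CEES 3. S100a8 had 44.9 CPM in CEES 2, against 13.98 and 12.9 CPM. Blood transcripts made up 0.0305% of gene counts in CEES 2, against 0.0152 and 0.0148%. The embryonic muscle genes Myh3 and Actc1, given below, were also highest in CEES 2. Its share of skeletal muscle transcripts, 3.79%, lay near those of CEES 1 (4.46%) and CEES 3 (4.16%). The labelled tissue was matched by its markers, with the basal keratin Krt5 at 3158 to 3501 CPM in SNX-5422+CEES skin, 2142 to 2647 CPM in CEES skin and 2751 to 3489 CPM in Control skin (CPM is a gene's count relative to a TMM-scaled library total). Transcripts of skeletal muscle made up 6.99 to 9.00% of gene counts in SNX-5422+CEES skin, 3.79 to 4.46% in CEES skin and 7.09 to 11.8% in Control skin. In these bulk samples fewer cells of a type and less RNA per cell cannot be told apart. The library codes of both CEES groups follow each other and lie apart from those of Control, so handling and treatment cannot be told apart.

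Of 20 wound keratin and alarm genes tested, 15 were higher in SNX-5422+CEES skin than in Control skin and 1 was lower, with a median log2 fold change of 1.78. Krt6b (ENSMUSG00000023041), a keratin that epidermis makes on injury, had 615, 1689 and 1369 CPM in SNX-5422+CEES skin, 358, 416 and 330.0 CPM in CEES skin and 24.8, 24.9 and 26.99 CPM in Control skin. Every SNX-5422+CEES library lay above every CEES library, with SNX-5422+CEES 1 the lowest of its group, and the 3 Control libraries lay far below. The log2 fold change was 5.58 ± 0.31 (SE, edgeR adjusted p = 6.17e-08) against Control, and 1.73 ± 0.26 (SE, edgeR adjusted p = 0.00135) against CEES. Krt16, which pairs with keratin 6 in filaments of the activated epidermis, had 933, 2224 and 1894 CPM in SNX-5422+CEES skin, 636, 703 and 660.0 CPM in CEES skin and 146, 153 and 148 CPM in Control skin. Again the groups did not overlap, and SNX-5422+CEES was highest, at 3.50 ± 0.23 (SE, edgeR adjusted p = 2.1e-07) against Control and 1.34 ± 0.21 (SE, edgeR adjusted p = 0.00162) against CEES. Krt6a showed the same order, at 2.24 ± 0.17 (SE, edgeR adjusted p = 1.01e-06) against Control and 0.77 ± 0.16 (SE, edgeR adjusted p = 0.00904) against CEES.

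The small proline-rich proteins, cross-linked precursors of the cornified envelope, were among the members raised against Control. Sprr1b rose by 3.23 ± 0.36 (SE, edgeR adjusted p = 2.04e-05). Krt17, another injury keratin with a high resting level, averaged 1459 ± 124 CPM in SNX-5422+CEES skin and 1158 ± 55.8 CPM in Control skin (SD, n = 3 each), at 0.33 ± 0.1 (SE, edgeR adjusted p = 0.0238), and this call was lost in 5 of the alternatives; both genes were chosen after their values were seen. The lowered member was Serpinb3a, a serine protease inhibitor, which fell to 0.701, 3.60 and 2.28 CPM in SNX-5422+CEES skin, against 8.24, 5.48 and 7.75 CPM in Control skin, at -1.70 ± 0.36 (SE, edgeR adjusted p = 0.00314). Sprr1a (log2 fold change 0.29 ± 0.24, edgeR adjusted p = 0.423), Hbegf (0.16 ± 0.12, edgeR adjusted p = 0.406) and S100a7a (0.12 ± 0.31, edgeR adjusted p = 0.817) did not pass the test. Against CEES skin 4 members were higher and 1 was lower, and the number higher was 8 without SNX-5422+CEES 1 and 9 with no filter.

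Among 24 cornified layer genes the calls fell on few members. Of these, 6 were higher than in Control skin and none was lower, beside 13.1% and 9.25% over all genes. The median was -0.12, which ranged from -0.33 to 0.08 over the alternatives and so had no fixed sign. Lce3d, a late cornified envelope gene of the cluster induced on barrier damage, had 0 counts in every Control library. It had 7.99, 16.2 and 13.9 CPM in SNX-5422+CEES skin, against 3.98, 7.34 and 4.86 CPM in CEES skin, and the rise over Control was at least 301-fold with the floor set at 3 counts over the group, a bound that lies above the list median and leaves it as it was. Lce3c of the same cluster had 12.7, 18.4 and 16.9 CPM in SNX-5422+CEES skin, 7.65, 10.97 and 10.5 CPM in CEES skin and 0.214, 0.0465 and 0.130 CPM in Control skin, and each SNX-5422+CEES library lay above every CEES library, at 6.91 ± 0.45 (SE, edgeR adjusted p = 2.1e-07) against Control. Its difference from CEES did not pass the test, at 0.72 ± 0.27 (SE, edgeR adjusted p = 0.14), and passed with no filter (0.033), with only the 2 groups in the fit (0.0439) and with DESeq2 (0.0432).

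Rptn, the gene of repetin in the cornified envelope, stood out by its difference from CEES skin. It had 70.96, 193 and 142 CPM in SNX-5422+CEES skin, 19.3, 26.7 and 20.96 CPM in CEES skin and 17.6, 9.25 and 18.1 CPM in Control skin. All SNX-5422+CEES libraries were above both other groups, whose ranges lay close together, at 3.17 ± 0.33 (SE, edgeR adjusted p = 1.04e-05) against Control and 2.60 ± 0.32 (SE, edgeR adjusted p = 0.00025) against CEES. The difference between CEES and Control was 0.57 ± 0.31 (SE, edgeR adjusted p = 0.176). The structural genes Flg, Lor, Krt1 and Krt10 of resting cornified skin did not pass the test against Control. Filaggrin (Flg) had 216, 515 and 408 CPM in SNX-5422+CEES skin, 195, 118 and 207 CPM in CEES skin and 385, 265 and 393 CPM in Control skin, with overlap between SNX-5422+CEES and Control, at 0.13 ± 0.26 (SE, edgeR adjusted p = 0.772) against Control. Loricrin (Lor) stood at -0.14 ± 0.28 (SE, edgeR adjusted p = 0.756), and the suprabasal keratins Krt1 and Krt10 at 0.04 ± 0.22 (SE, edgeR adjusted p = 0.921) and -0.58 ± 0.25 (SE, edgeR adjusted p = 0.114) against Control. Against CEES 6 members were higher and none lower, and this count was 15 with no filter, 1 without SNX-5422+CEES 2 or 3 and 3 without CEES 1 or 3. CEES skin set against Control had 3 members higher and 9 lower.

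**Figure D2:**
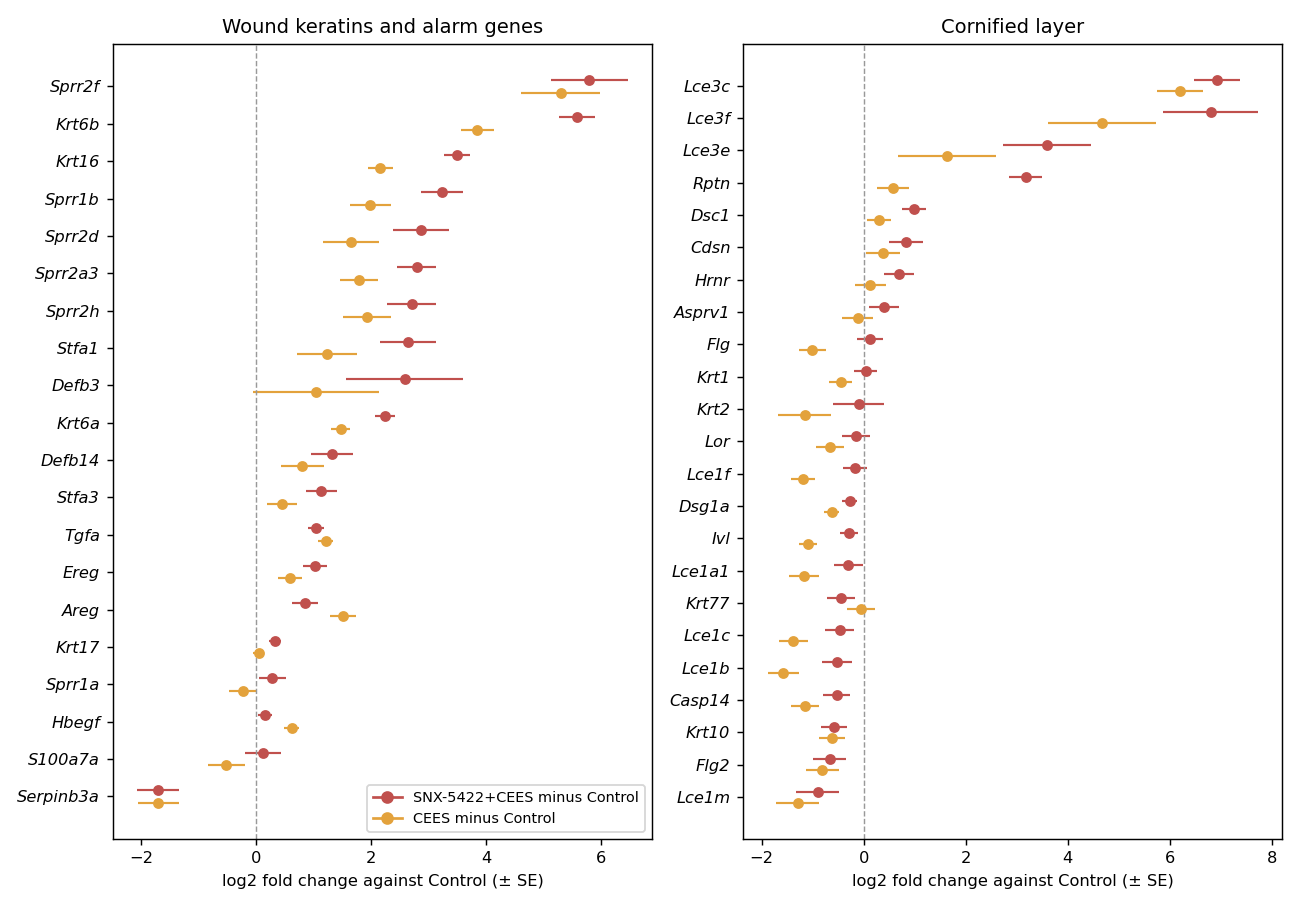
Log2 fold change against Control (horizontal axis, ± SE) of each wound keratin, alarm and cornified layer gene in SNX-5422+CEES skin and in CEES skin. Krt6b, Krt16 and Rptn lie further from 0 in SNX-5422+CEES than in CEES, while Krt1, Lor and Flg lie near 0 in SNX-5422+CEES and Krt10 lies below 0, with none of these 4 past the test. Lce3d, with 0 counts in Control, is left out.

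Basal keratinocyte genes moved less. Of 16 members, 5 were higher than in Control skin and 3 were lower, beside 13.1% and 9.25% over all genes. Their median was 0.10. The raised members with the smallest p were the hemidesmosome integrins Itgb4, at 0.57 ± 0.084 (SE, edgeR adjusted p = 0.000177), and Itga6, at 0.59 ± 0.099 (SE, edgeR adjusted p = 0.000517), and the laminin-binding integrin Itga3, at 0.44 ± 0.091 (SE, edgeR adjusted p = 0.0026). The lowered members were Col7a1, the anchoring fibril collagen, at -0.69 ± 0.17 (SE, edgeR adjusted p = 0.0085), Krt15, a keratin of the bulge, at -1.17 ± 0.30 (SE, edgeR adjusted p = 0.01), and the hemidesmosome collagen Col17a1, at -0.38 ± 0.10 (SE, edgeR adjusted p = 0.0146). Each of these 3 falls lost its call when 1 library was left out, with adjusted p = 0.0507 and 0.0504 for Col7a1 and Krt15 without SNX-5422+CEES 2 and 0.0503 for Col17a1 without SNX-5422+CEES 3. Krt5 did not pass the test against Control (log2 fold change 0.12 ± 0.10, edgeR adjusted p = 0.466). The basal keratin Krt14, chosen after its values were seen, was higher than in Control (log2 fold change 0.41, edgeR adjusted p = 0.0237). SNX-5422+CEES 1 lay inside the Control range of Krt14. Against CEES 8 members were higher and 0 lower, and 3 were higher without SNX-5422+CEES 3 or under total-count scaling. CEES against Control had 3 higher and 7 lower.

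Among 21 barrier lipid and cornification enzyme genes, 6 were higher and 3 lower than in Control skin, beside 13.1% and 9.25% over all genes. Ugcg, which makes glucosylceramide, rose to 72.1, 101 and 96.7 CPM in SNX-5422+CEES skin, against 36.6, 30.02 and 39.7 CPM in Control skin, at 1.34 ± 0.19 (SE, edgeR adjusted p = 0.000139). The groups did not overlap. Tgm1, the transglutaminase that cross-links the envelope, rose by 0.84 ± 0.21 (edgeR adjusted p = 0.0102), and Spink5, an inhibitor of epidermal kallikreins, by 0.84 ± 0.22 (edgeR adjusted p = 0.0117). The number higher fell to 1 without SNX-5422+CEES 2 and to 3 without Control 2. Elovl4, which extends very long chain fatty acids, was lower than in Control, at -0.92 ± 0.27 (SE, edgeR adjusted p = 0.0211). Its difference from CEES was -1.02 ± 0.27 (SE, edgeR adjusted p = 0.0302), a call that was lost without CEES 1 or 3 or any 1 SNX-5422+CEES library (adjusted p = 0.0523 to 0.12). Tgm3, another transglutaminase, did not differ detectably from Control (log2 fold change 0.19 ± 0.18, edgeR adjusted p = 0.493) but was higher than in CEES skin, with 60.04, 92.99 and 84.4 CPM in SNX-5422+CEES skin, against 34.96, 29.4 and 33.6 CPM in CEES skin, and did not overlap it (log2 fold change 1.28 ± 0.19, edgeR adjusted p = 0.000967).

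Hair follicle genes had a median of -1.43, and 4 of 20 passed the test as lower, beside 9.25% of all genes. Among them were Krt79 of the follicle opening (log2 fold change -1.09 ± 0.20, edgeR adjusted p = 0.00114) and the stem cell factor Sox9 (log2 fold change -0.73 ± 0.19, edgeR adjusted p = 0.00973). SNX-5422+CEES 1 held the highest level of its group in Krt79, Sox9 and Tchh, and without it 19 members were lower. Trichohyalin (Tchh), a protein of the inner root sheath, had 593, 74.2 and 296 CPM in SNX-5422+CEES skin, against 1413, 543 and 1296 CPM in Control skin, with SNX-5422+CEES 1 inside the Control range, at -1.76 ± 0.69 (SE, edgeR adjusted p = 0.0781).

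Of 21 neutrophil chemokine and interleukin genes, 13 were higher and 2 lower than in Control, with a median of 2.29. Against CEES, 0 were higher and 11 lower, with a median of -0.85, and the alternatives gave 9 to 13 lower. The number higher was 3 with no filter on low counts or without SNX-5422+CEES 1, and 2 with DESeq2. Cxcl1 (ENSMUSG00000029380), whose promoter is printed above, had 5.85, 5.91 and 7.12 CPM in SNX-5422+CEES skin, 29.02, 33.1 and 26.4 CPM in CEES skin and 1.07, 1.25 and 1.43 CPM in Control skin. The 3 groups did not overlap and SNX-5422+CEES lay between the other 2. Its log2 fold change was 2.31 ± 0.33 (SE, edgeR adjusted p = 0.000133) against Control and -2.23 ± 0.28 (SE, edgeR adjusted p = 0.000285) against CEES. Cxcl5, a related chemokine made by epithelium, kept the same order with 12.8, 19.4 and 17.5 CPM in SNX-5422+CEES skin, 66.2, 81.7 and 70.6 CPM in CEES skin and 0.963, 1.21 and 0.714 CPM in Control skin. It stood at 4.13 ± 0.49 (SE, edgeR adjusted p = 2.93e-05) against Control and -2.14 ± 0.37 (SE, edgeR adjusted p = 0.00259) against CEES.

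Il1b, the inflammasome-processed cytokine, had 11.1, 31.2 and 23.2 CPM in SNX-5422+CEES skin, 78.4, 114 and 84.4 CPM in CEES skin and 4.01, 5.07 and 4.35 CPM in Control skin, the libraries of SNX-5422+CEES lying between those of the other groups. It was raised by 2.29 ± 0.31 (SE, edgeR adjusted p = 9.92e-05) against Control and stood at -2.08 ± 0.28 (SE, edgeR adjusted p = 0.000676) against CEES. Il6, which signals through gp130 and was chosen for mention after its values were seen, had 3.42, 5.01 and 3.06 CPM in SNX-5422+CEES skin, 24.6, 26.4 and 22.3 CPM in CEES skin and 0, 0.279 and 0.195 CPM in Control skin, at 4.47 ± 0.74 (SE, edgeR adjusted p = 0.000463) against Control and -2.67 ± 0.47 (SE, edgeR adjusted p = 0.00309) against CEES. Il24 and Il33 were higher than in Control, at 4.49 ± 0.47 (SE, edgeR adjusted p = 1.21e-05) and 2.22 ± 0.24 (SE, edgeR adjusted p = 1.39e-05), and their differences from CEES did not pass the test (edgeR adjusted p = 0.0967 and 0.197, or 0.00407 and 0.0133 with no filter). The 2 lowered members were the interleukin-1 receptor antagonist Il1rn, at -0.41 ± 0.13 (SE, edgeR adjusted p = 0.0284), and Il23a, at -1.51 ± 0.50 (SE, edgeR adjusted p = 0.0415). Il1rn lost its call without SNX-5422+CEES 1 (adjusted p = 0.108), SNX-5422+CEES 3 (0.056), Control 1 (0.0812) or Control 3 (0.0676), and Il23a lost it in 9 of the alternatives. Tnf (log2 fold change 0.40 ± 0.23, edgeR adjusted p = 0.237) and Il1a (log2 fold change -0.054 ± 0.25, edgeR adjusted p = 0.902) did not pass the test.

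**Figure D3:**
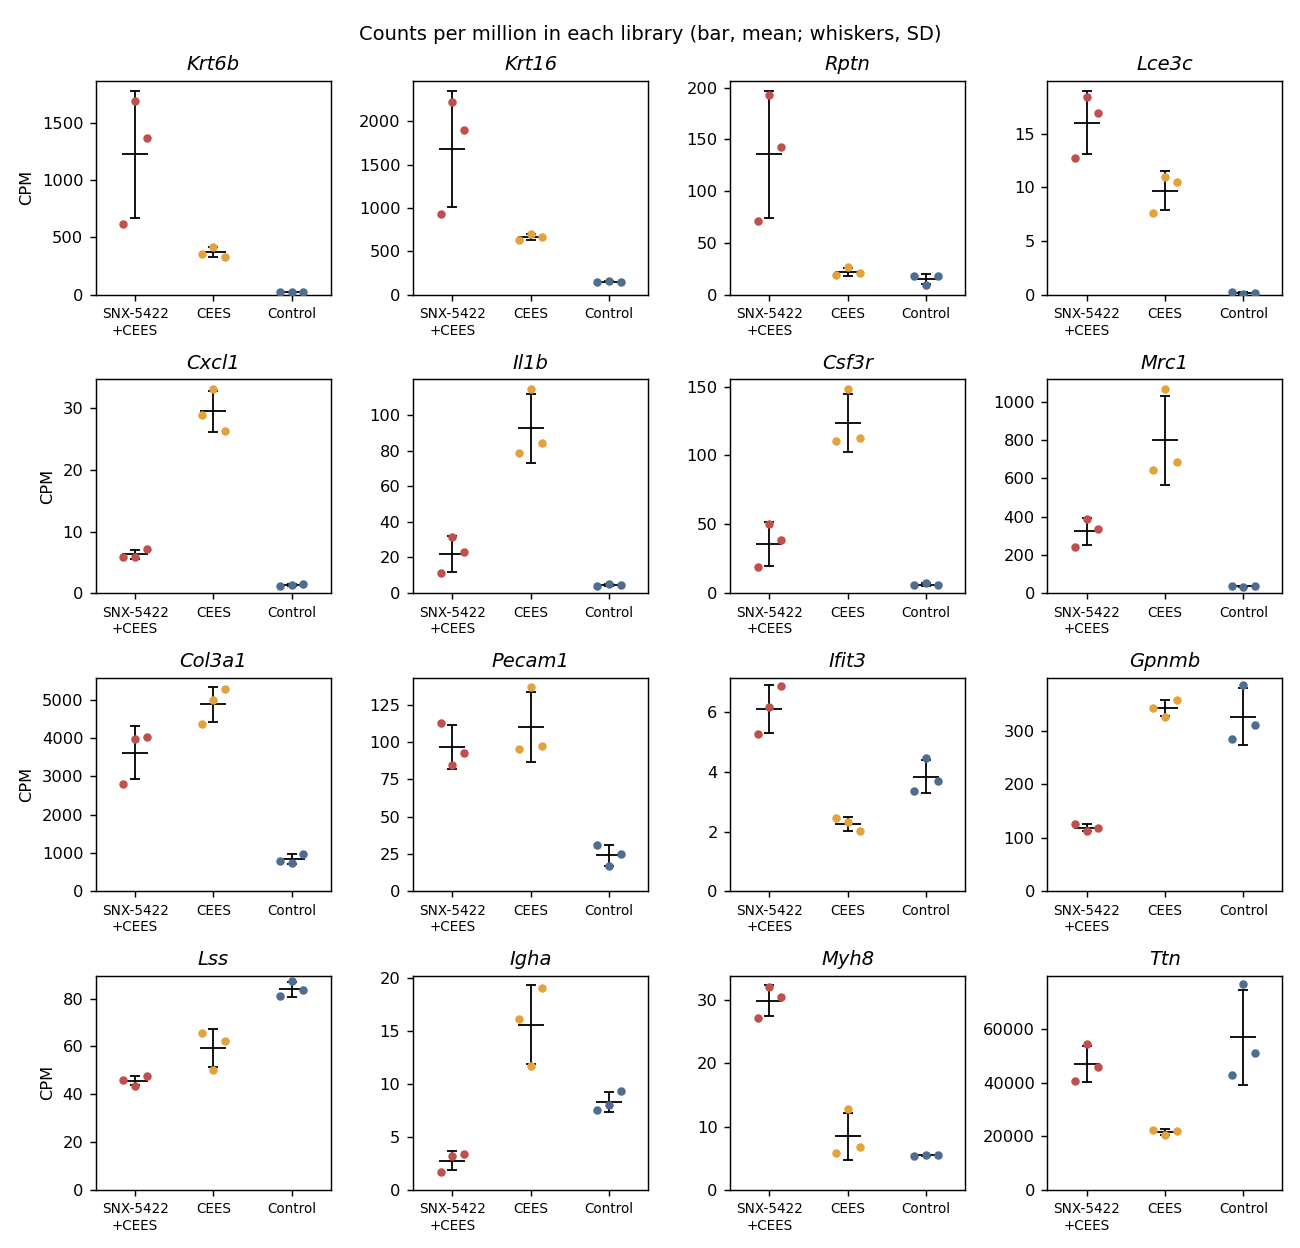
Level in CPM (vertical axes) of 16 genes in each library of the SNX-5422+CEES, CEES and Control groups, with mean ± SD. Krt6b, Krt16 and Rptn are highest in SNX-5422+CEES, Cxcl1, Il1b, Csf3r and Mrc1 are between the other groups, and Gpnmb and Igha are lowest.

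CC and interferon-type chemokines followed in part. Of 19, 10 were higher and 1 lower than in Control skin, with a median of 1.56. Ccl9, Ccl6 and Ccl7, which attract monocytes, rose by 2.59 ± 0.25, 2.78 ± 0.28 and 3.77 ± 0.45 (SE; edgeR adjusted p = 6.42e-06, 8.71e-06 and 2.98e-05). Ccl27a, a keratinocyte chemokine for skin-homing T cells, was the lowered member, with 2.80, 2.74 and 2.73 CPM in SNX-5422+CEES skin, against 9.52, 7.62 and 8.14 CPM in Control skin and no overlap, at -1.61 ± 0.23 (SE, edgeR adjusted p = 0.00012). Against CEES 5 members were lower, Ccl9, Ccl6 and Ccl7 among them, and 2 were higher, with a median of -0.29. The number lower was 1 without SNX-5422+CEES 1 or 3 or CEES 2. Ccl22, made by dendritic cells and macrophages and chosen after its values were seen, went the other way from the neutrophil chemokines against CEES. It had 9.31, 17.2 and 14.3 CPM in SNX-5422+CEES skin, 6.03, 3.26 and 4.95 CPM in CEES skin and 3.91, 3.62 and 4.15 CPM in Control skin, at 1.52 ± 0.30 (SE, edgeR adjusted p = 0.00619) against CEES. Cxcl9, an interferon-gamma target, did not pass the test against Control (log2 fold change -0.25 ± 0.33, edgeR adjusted p = 0.638) and was higher than in CEES skin (log2 fold change 2.26 ± 0.39, edgeR adjusted p = 0.00278).

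Of 17 neutrophil markers, 13 were higher than in Control and 0 lower, with a median of 2.54. Csf3r, the receptor for granulocyte colony-stimulating factor, had 18.6, 49.96 and 38.3 CPM in SNX-5422+CEES skin, 111, 148 and 113 CPM in CEES skin and 5.56, 7.16 and 5.68 CPM in Control skin. The groups did not overlap, at 2.54 ± 0.33 (SE, edgeR adjusted p = 6.69e-05) against Control and -1.80 ± 0.30 (SE, edgeR adjusted p = 0.00235) against CEES. The calcium-binding proteins S100a8 and S100a9, abundant in neutrophils and also made by injured keratinocytes, did not pass the test against CEES skin. S100a8, chosen like S100a9 after its values were seen, had 10.96, 52.7 and 41.1 CPM in SNX-5422+CEES skin, 13.98, 44.9 and 12.9 CPM in CEES skin and 3.26, 3.95 and 3.92 CPM in Control skin, at 3.22 ± 0.52 (SE, edgeR adjusted p = 0.000356) against Control and 0.54 ± 0.45 (SE, edgeR adjusted p = 0.579) against CEES. S100a9 stood at 2.80 ± 0.53 (SE, edgeR adjusted p = 0.00137) against Control and 0.13 ± 0.47 (SE, edgeR adjusted p = 0.921) against CEES. Clec4e and Lcn2, a lectin receptor and a siderophore-binding protein, rose by 2.28 ± 0.25 and 2.44 ± 0.30 against Control (SE; edgeR adjusted p = 1.39e-05 and 3.82e-05). The granule genes Mpo (log2 fold change -1.05 ± 0.67, edgeR adjusted p = 0.286) and Camp (log2 fold change -0.77 ± 0.59, edgeR adjusted p = 0.388) were under 1 CPM in every library and did not pass the test. Against CEES 5 markers were lower, which became 2 without SNX-5422+CEES 1 or CEES 2 and 3 without SNX-5422+CEES 3. Blood transcripts were also higher than in Control, with 6 of 9 called as higher and 0 as lower. Against CEES their median was 0.065, with 0 higher and 2 lower, beside 3.54% and 3.46% over all genes. These made up 0.0111 to 0.0168% of gene counts in SNX-5422+CEES skin, 0.0148 to 0.0305% in CEES skin and 0.00327 to 0.00540% in Control skin. Platelet factor Pf4 rose by 4.46 ± 0.41 against Control (SE; edgeR adjusted p = 4.5e-06). Their part in the leukocyte results was not tested.

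Monocyte and macrophage markers gave 17 of 21 higher, 1 lower and a median of 1.87. Mrc1, the mannose receptor, had 243, 387 and 337 CPM in SNX-5422+CEES skin, 643, 1067 and 687 CPM in CEES skin and 34.6, 33.8 and 37.6 CPM in Control skin, with no overlap between the groups and SNX-5422+CEES between the other 2. It stood at 3.19 ± 0.24 (SE, edgeR adjusted p = 1.01e-06) against Control and -1.31 ± 0.22 (SE, edgeR adjusted p = 0.00237) against CEES. Ccr2, the monocyte chemokine receptor, rose by 2.69 ± 0.22 (SE; edgeR adjusted p = 1.81e-06), and Fcgr1, a high-affinity IgG receptor, by 2.39 ± 0.24 (SE; edgeR adjusted p = 1.02e-05). Against CEES 9 markers were lower and 0 higher, and 5 were lower without CEES 2. C1qb, a complement subunit of resident macrophages chosen after its values were seen, rose against Control (log2 fold change 1.93 ± 0.25, edgeR adjusted p = 6.53e-05) and did not pass the test against CEES (log2 fold change 0.14 ± 0.23, edgeR adjusted p = 0.823).

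Gpnmb (ENSMUSG00000029816) went against its list. This glycoprotein of lysosome-rich macrophages and pigment cells had 125, 113 and 119 CPM in SNX-5422+CEES skin, 343, 326 and 358 CPM in CEES skin and 284, 385 and 311 CPM in Control skin. The SNX-5422+CEES libraries lay below both other groups, whose ranges overlapped. Its log2 fold change was -1.46 ± 0.11 (SE, edgeR adjusted p = 1.17e-06) against Control and -1.52 ± 0.11 (SE, edgeR adjusted p = 7.31e-06) against CEES, while CEES minus Control was 0.068 ± 0.11 (SE, edgeR adjusted p = 0.669). Atp6v0d2, a subunit of the lysosomal proton pump, had the same pattern with 14.4, 14.04 and 10.8 CPM in SNX-5422+CEES skin, 30.4, 49.6 and 31.3 CPM in CEES skin and 29.3, 33.4 and 27.7 CPM in Control skin, at -1.20 ± 0.17 (SE, edgeR adjusted p = 0.000119) against Control and -1.50 ± 0.17 (SE, edgeR adjusted p = 0.000214) against CEES. Mmp12, the macrophage elastase, was also lowest in SNX-5422+CEES skin, at -0.56 ± 0.13 (SE, edgeR adjusted p = 0.00647) against Control and -1.18 ± 0.13 (SE, edgeR adjusted p = 0.000216) against CEES.

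T cell, Langerhans cell and mast cell markers were 2 higher and 3 lower of 17, beside 13.1% and 9.25% over all genes, with a median of 0.0091 that changed sign over the alternatives. The T cell receptor subunit Cd3e fell to 1.44, 2.97 and 3.48 CPM in SNX-5422+CEES skin, against 8.29, 4.69 and 5.74 CPM in Control skin, at -1.24 ± 0.28 (SE, edgeR adjusted p = 0.00474), with no overlap. Cd3g had -1.18 (edgeR adjusted p = 0.0107). B cell and plasma cell markers were 1 higher and 8 lower of 12, with a median of -1.64. Immunoglobulin kappa (Igkc) had 0.536, 1.49 and 1.03 CPM in SNX-5422+CEES skin, 4.15, 3.26 and 4.77 CPM in CEES skin and 9.68, 6.65 and 6.65 CPM in Control skin, all SNX-5422+CEES libraries being the lowest, at -2.89 ± 0.30 (SE, edgeR adjusted p = 1.07e-05) against Control and -1.98 ± 0.30 (SE, edgeR adjusted p = 0.00153) against CEES. Igha, the heavy chain of IgA, had 1.69, 3.21 and 3.39 CPM in SNX-5422+CEES skin, 16.1, 11.7 and 19.04 CPM in CEES skin and 7.54, 8.04 and 9.37 CPM in Control skin, at -1.59 ± 0.25 (SE, edgeR adjusted p = 0.000293) against Control and -2.49 ± 0.25 (SE, edgeR adjusted p = 0.000105) against CEES. CEES skin had the highest Igha level of the 3 groups, at 0.90 ± 0.23 (SE, edgeR adjusted p = 0.00626) against Control. The IgG heavy chain gene Ighg2c had 0.0412, 0.117 and 0.0828 CPM in SNX-5422+CEES skin, against 4.07, 3.21 and 2.72 CPM in Control skin, at -5.25 ± 0.41 (SE, edgeR adjusted p = 1.17e-06).

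Of 19 complement and acute phase genes, 14 were higher than in Control and 0 lower, with a median of 1.74. Saa3, a serum amyloid made in injured tissue, had 84.4, 151 and 135 CPM in SNX-5422+CEES skin, 207, 267 and 244 CPM in CEES skin and 2.68, 3.25 and 3.18 CPM in Control skin. The rise against Control was 5.33 ± 0.42 (SE, edgeR adjusted p = 1.17e-06), and the difference from CEES did not pass the test (log2 fold change -0.96 ± 0.32, edgeR adjusted p = 0.0928, or 0.0146 with only the 2 groups in the fit and 5.71e-05 with no filter). Haptoglobin (Hp) rose by 3.06 ± 0.31 and Saa1 by 4.42 ± 0.44 against Control (SE; edgeR adjusted p = 8.55e-06 and 8.23e-06). C1s1, a protease of the first component, and C3, the central component, were chosen after their values were seen. C1s1 averaged 56.6 ± 10.6 CPM in SNX-5422+CEES skin, 55.7 ± 3.51 CPM in CEES skin and 11.9 ± 2.20 CPM in Control skin (SD, n = 3 each). C3 differed from Control (log2 fold change 2.23 ± 0.27, edgeR adjusted p = 3.76e-05) and not detectably from CEES (log2 fold change -0.034 ± 0.26, edgeR adjusted p = 0.964). Against CEES 4 members were lower, which became 1 without SNX-5422+CEES 1 and 2 without any other library of the 2 groups.

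Of 20 fibroblast and collagen genes, 19 were higher than in Control and 0 lower, with a median of 1.58. Col3a1, a fibrillar collagen abundant in healing skin, had 2812, 3979 and 4038 CPM in SNX-5422+CEES skin, 4372, 4987 and 5276 CPM in CEES skin and 801, 745 and 984 CPM in Control skin. All SNX-5422+CEES libraries lay above Control and below CEES. The log2 fold change was 2.10 ± 0.22 (SE, edgeR adjusted p = 1.29e-05) against Control and -0.43 ± 0.22 (SE, edgeR adjusted p = 0.283) against CEES. Col1a1 and Col1a2, the chains of type I collagen, rose by 1.27 ± 0.22 and 1.63 ± 0.22 against Control (SE; edgeR adjusted p = 0.000553 and 8.69e-05). These 3 collagens and Krt16 and Krt6b were the 5 largest rises in CPM, a scale on which long and abundant transcripts weigh most. Lum, the keratan sulfate proteoglycan lumican, rose by 2.31 ± 0.20 (SE; edgeR adjusted p = 2.99e-06). Thy1 was the member that did not pass the test, at 0.36 ± 0.22 (SE, edgeR adjusted p = 0.262). Against CEES 1 member was higher, Col14a1 (log2 fold change 0.77 ± 0.18, edgeR adjusted p = 0.0167), and 0 were lower, beside 3.54% and 3.46% over all genes. Col14a1 lost this call without SNX-5422+CEES 2 or 3 or CEES 1 or 3 (adjusted p = 0.0621 to 0.0801), and 6 members were lower with no filter on low counts or with only the 2 groups in the fit. With no filter Col3a1 was among those called against CEES (adjusted p = 0.0276). CEES against Control had 19 higher.

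Provisional matrix and wound repair genes were 17 of 23 higher than in Control and 0 lower, with a median of 0.83. Tnfaip6, a hyaluronan-binding protein induced by inflammation, had 12.03, 21.6 and 19.2 CPM in SNX-5422+CEES skin, 64.7, 63.4 and 64.4 CPM in CEES skin and 0.910, 0.836 and 1.72 CPM in Control skin, SNX-5422+CEES lying between the other groups without overlap, at 3.86 ± 0.35 (SE, edgeR adjusted p = 3.78e-06) against Control and -1.87 ± 0.27 (SE, edgeR adjusted p = 0.00102) against CEES. The matricellular gene Ccn1 also lay between, at 1.08 ± 0.14 (SE, edgeR adjusted p = 5.31e-05) against Control and -1.15 ± 0.13 (SE, edgeR adjusted p = 0.00023) against CEES. Its relative Ccn2 rose by 1.56 ± 0.19 against Control (SE; edgeR adjusted p = 3.76e-05) and its difference from CEES was 0.45 ± 0.18 (SE, edgeR adjusted p = 0.178). Periostin (Postn) and the myofibroblast actin Acta2 did not pass the test against Control, at 0.24 ± 0.11 (SE, edgeR adjusted p = 0.128) and -0.022 ± 0.22 (SE, edgeR adjusted p = 0.958). Against CEES 10 members were lower, 6 without SNX-5422+CEES 3 and 5 without CEES 2.

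Matrix proteases and their inhibitors were 15 of 20 higher and 1 lower (Mmp12, above), with a median of 0.90. Mmp3, a stromelysin, had 52.95, 63.5 and 61.7 CPM in SNX-5422+CEES skin, against 5.35, 6.97 and 7.07 CPM in Control skin, without overlap, at 3.19 ± 0.35 (SE, edgeR adjusted p = 1.56e-05). Timp1, which inhibits these enzymes, rose by 2.21 ± 0.24 (SE, edgeR adjusted p = 1.39e-05). Adamts4, an aggrecanase, had 9.64, 6.61 and 8.65 CPM in SNX-5422+CEES skin, 27.3, 40.02 and 27.4 CPM in CEES skin and 3.96, 2.14 and 1.56 CPM in Control skin. It stood at 1.74 ± 0.47 (SE, edgeR adjusted p = 0.0144) against Control and -1.93 ± 0.42 (SE, edgeR adjusted p = 0.0114) against CEES, and the first of these calls was lost without Control 3 (adjusted p = 0.0796) and the second without SNX-5422+CEES 2 (0.0541). Against CEES 8 members were lower, 13 with no filter and 5 without SNX-5422+CEES 2 or CEES 2.

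Endothelial markers gave 16 of 17 higher and 1 lower, with a median of 1.30. Selp, the platelet and endothelial selectin that slows leukocytes, had 10.1, 11.3 and 9.19 CPM in SNX-5422+CEES skin, against 1.66, 0.836 and 1.75 CPM in Control skin and did not overlap, at 2.83 ± 0.40 (SE, edgeR adjusted p = 0.000114). Icam1, a leukocyte adhesion molecule, rose by 0.90 ± 0.11 (SE, edgeR adjusted p = 2.98e-05), and Esam, a junction molecule, by 1.61 ± 0.23 (SE, edgeR adjusted p = 0.00015). The lowered member, Esm1, was under 1 CPM in every library and lost its call without any of 4 libraries (adjusted p = 0.0793 to 0.167). Against CEES, 1 marker was lower (Icam1, log2 fold change -0.42 ± 0.10, edgeR adjusted p = 0.0224) and 0 were higher, beside 3.46% and 3.54% over all genes. Icam1 lost this call without SNX-5422+CEES 1 or 2 or CEES 2 or 3 (adjusted p = 0.0648 to 0.0783), and 3 markers were lower with no filter or with only the 2 groups in the fit.

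**Figure D4:**
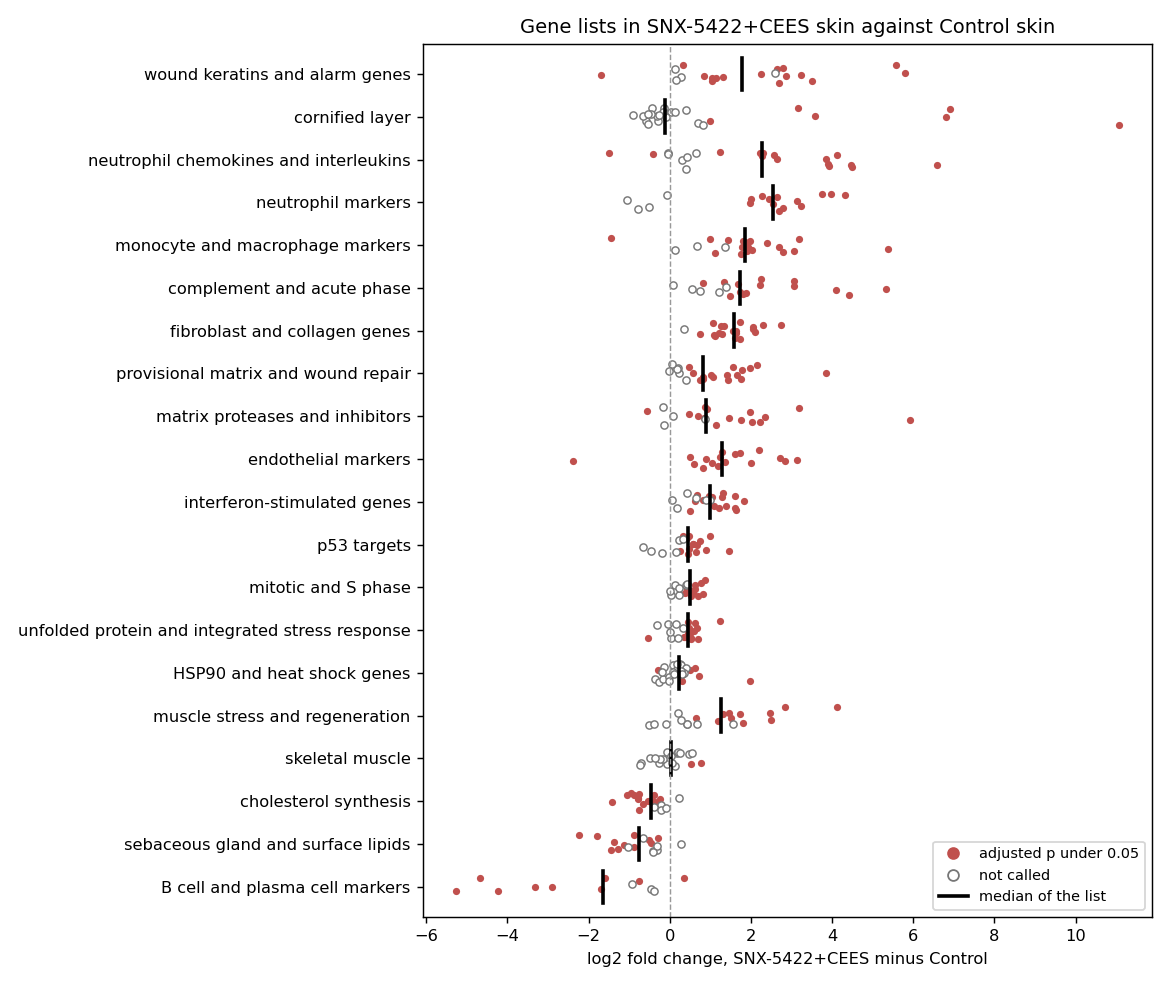
Log2 fold change of SNX-5422+CEES minus Control (horizontal axis) for every tested member of 20 gene lists, 1 point per gene, with the list median as a bar. Neutrophil, macrophage, complement, fibroblast and endothelial members lie mostly right of 0, cholesterol synthesis and sebaceous gland members mostly left of 0.

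Of 21 interferon-stimulated genes, 15 were higher than in Control and 0 lower, with a median of 0.99. Ifitm3, a membrane protein that restricts viral entry, had 78.3, 95.2 and 89.03 CPM in SNX-5422+CEES skin, 84.4, 88.6 and 84.7 CPM in CEES skin and 32.4, 39.6 and 35.1 CPM in Control skin. The SNX-5422+CEES and CEES ranges overlapped and both lay above Control, at 1.29 ± 0.16 (SE, edgeR adjusted p = 3.72e-05) against Control. Oas2, which senses double-stranded RNA, had 15.4 ± 1.40 CPM in SNX-5422+CEES skin, 10.7 ± 2.48 CPM in CEES skin and 5.02 ± 1.69 CPM in Control skin (SD, n = 3 each), at 1.63 ± 0.29 (SE, edgeR adjusted p = 0.000839) against Control. Ifit1, whose promoter is printed above, had 2.93, 7.51 and 4.18 CPM in SNX-5422+CEES skin, 2.93, 1.22 and 2.41 CPM in CEES skin and 1.55, 1.53 and 1.72 CPM in Control skin, at 1.60 ± 0.38 (SE, edgeR adjusted p = 0.00611) against Control and 1.16 ± 0.37 (SE, edgeR adjusted p = 0.0701) against CEES. That difference was called with no filter (adjusted p = 0.00295), with DESeq2 (0.03) and without SNX-5422+CEES 1 (0.028). Against CEES 3 members were higher and 0 lower. They included Ifit3 and Irf7, both chosen after their values were seen, of which Irf7 had 12.3, 16.4 and 16.2 CPM in SNX-5422+CEES skin, 8.00, 8.16 and 7.22 CPM in CEES skin and 10.2, 9.76 and 9.37 CPM in Control skin, at 0.94 ± 0.18 (SE, edgeR adjusted p = 0.00563) against CEES. CEES against Control had 6 higher and 1 lower. The interferon-induced chemokine Cxcl10 did not pass the test against Control (log2 fold change 0.19 ± 0.24, edgeR adjusted p = 0.62).

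The p53 targets, which answer to DNA damage, were 14 of 20 higher and 0 lower, with a median of 0.46, beside 13 higher and 1 lower in CEES against the same Control libraries. Eda2r, a death receptor of the TNF family, had 30.8, 44.9 and 37.1 CPM in SNX-5422+CEES skin, 39.8, 42.4 and 36.6 CPM in CEES skin and 11.7, 14.9 and 14.3 CPM in Control skin, where the SNX-5422+CEES and CEES ranges overlapped. It stood at 1.46 ± 0.12 (SE, edgeR adjusted p = 2.61e-06) against Control and -0.074 ± 0.12 (SE, edgeR adjusted p = 0.808) against CEES. Tnfrsf10b, the TRAIL receptor, and Zmat3, an RNA-binding p53 target, rose by 0.997 ± 0.12 (SE, edgeR adjusted p = 2.78e-05) and 0.67 ± 0.087 (SE, edgeR adjusted p = 5.93e-05). DNA repair genes were 9 of 20 higher and 1 lower, and 5 higher without SNX-5422+CEES 2 or Control 3. Polk, a translesion polymerase, led with 0.93 ± 0.10 (SE; edgeR adjusted p = 1.39e-05). Mitotic and S phase genes were 13 of 20 higher and 0 lower, with a median of 0.50. Rrm2, a ribonucleotide reductase subunit, had 48.5, 50.1 and 47.8 CPM in SNX-5422+CEES skin, against 21.5, 31.4 and 27.4 CPM in Control skin, and Cdc20, an activator of the anaphase complex, had 31.6, 34.5 and 32.04 CPM in SNX-5422+CEES skin, against 16.00, 20.9 and 18.97 CPM in Control skin, neither overlapping, at 0.86 ± 0.11 (SE, edgeR adjusted p = 6.35e-05) and 0.81 ± 0.13 (SE, edgeR adjusted p = 0.000297). Mki67 did not pass the test (log2 fold change 0.13 ± 0.11, edgeR adjusted p = 0.468). Against CEES edgeR called 0 of the mitotic and 0 of the DNA repair genes, and so did DESeq2, while 2 and 1 of them had an unadjusted p under 0.05. In this comparison edgeR called 7.00% of all genes, so 0 of 20 lies near the share over all genes.

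Of 26 HSP90 and heat shock genes, which hold the targets of the inhibitor, 6 were higher than in Control and 1 lower, beside 13.1% and 9.25% over all genes. Their median was 0.22, and 3 were higher without SNX-5422+CEES 2 or Control 1. Hsp90aa1, the inducible cytosolic HSP90, had 124, 134 and 129 CPM in SNX-5422+CEES skin, 149.8, 153 and 165 CPM in CEES skin and 70.5, 96.3 and 82.8 CPM in Control skin, at 0.63 ± 0.17 (SE, edgeR adjusted p = 0.0159) against Control. Its call was lost without SNX-5422+CEES 2 (adjusted p = 0.0521), Control 1 (0.0764) or Control 3 (0.0523). Hsp90ab1, the constitutive form, had 908, 964 and 914 CPM in SNX-5422+CEES skin, 830.3, 837 and 845 CPM in CEES skin and 864, 924 and 857 CPM in Control skin, with all ranges close together, at 0.074 ± 0.093 (SE, edgeR adjusted p = 0.615). Hsp90b1 of the endoplasmic reticulum rose by 0.51 ± 0.11 (SE, edgeR adjusted p = 0.00334), and the mitochondrial Trap1 did not pass the test (log2 fold change 0.18 ± 0.075, edgeR adjusted p = 0.0906).

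Hspa1a, Hspa1b, Dnajb1 and Bag3, which heat shock factor 1 drives, were not called against Control or CEES. Hspa1a had 11.7, 11.03 and 11.2 CPM in SNX-5422+CEES skin, 13.2, 12.03 and 15.6 CPM in CEES skin and 15.03, 14.8 and 13.98 CPM in Control skin, at -0.37 ± 0.25 (SE, edgeR adjusted p = 0.333) against Control and -0.26 ± 0.25 (SE, edgeR adjusted p = 0.645) against CEES. Hspa1b stood at -0.26 ± 0.16 (SE, edgeR adjusted p = 0.277), Dnajb1 at -0.15 ± 0.074 (SE, edgeR adjusted p = 0.15) and Bag3 at 0.30 ± 0.13 (SE, edgeR adjusted p = 0.103) against Control. With only the 2 groups in the fit Hspa1a was called as lower (adjusted p = 0.045) and Bag3 as higher (0.0325), with no filter on low counts Bag3 was called as higher (0.0487), and with upper-quartile scaling Dnajb1 was called as lower (0.0438). The small heat shock proteins differed from these. Cryab had 329.9, 463 and 401 CPM in SNX-5422+CEES skin, against 102, 98.6 and 103 CPM in Control skin, without overlap, at 1.97 ± 0.19 (SE, edgeR adjusted p = 5.39e-06), and Hspb1 rose by 0.71 ± 0.16 (SE, edgeR adjusted p = 0.00459). Against CEES edgeR called 0 of the 26 members, beside 7.00% of all genes in this comparison. An unadjusted p under 0.05 was found for 3 members. Hsp90aa1 stood at -0.28 against CEES (edgeR adjusted p = 0.417) and was called as lower with only the 2 groups in the fit (0.0376). Dnaja1, chosen after its values were seen, stood at -0.30 against CEES (edgeR adjusted p = 0.0515). DESeq2 called 1 member as lower, which was Dnaja1 (adjusted p = 0.0159), and edgeR called it under total-count scaling (0.0151).

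Unfolded protein and integrated stress response genes were 15 of 23 higher and 1 lower than in Control, with a median of 0.45. Against CEES 1 was higher and 4 were lower, with a median of -0.23. The number lower was 8 under total-count scaling and 1 without CEES 2. CEES against Control had 19 higher and 1 lower, with a median of 0.71. Pdia6, a disulfide isomerase, had 84.9, 102 and 98.5 CPM in SNX-5422+CEES skin, against 54.3, 65.9 and 59.6 CPM in Control skin, at 0.66 ± 0.11 (SE, edgeR adjusted p = 0.000436), and Dnajb11, a cochaperone, rose by 0.63 ± 0.10 (SE, edgeR adjusted p = 0.000388). The lowered member was Atf3, a stress transcription factor, with 11.95, 14.3 and 15.5 CPM in SNX-5422+CEES skin, 26.2, 29.7 and 27.7 CPM in CEES skin and 15.8, 25.2 and 19.7 CPM in Control skin. SNX-5422+CEES libraries were the lowest, at -0.54 ± 0.17 (SE, edgeR adjusted p = 0.028) against Control and -1.002 ± 0.17 (SE, edgeR adjusted p = 0.00226) against CEES. The call against Control was lost without SNX-5422+CEES 1 (adjusted p = 0.0932) or 2 (0.0665) or Control 2 (0.112) or 3 (0.0613). NRF2 targets, the response to electrophiles, were 7 of 18 higher and 2 lower than in Control, beside 13.1% and 9.25% over all genes. The number higher was 4 without SNX-5422+CEES 2, Control 1 or Control 3. Against CEES 0 were higher and 2 lower, with a median of -0.23. That became 4 lower with no filter and 0 without SNX-5422+CEES 2 or CEES 3. CEES against Control had 11 higher and 1 lower. Nqo1, a quinone reductase, had 19.2, 17.4 and 18.7 CPM in SNX-5422+CEES skin, against 8.67, 11.9 and 8.47 CPM in Control skin, at 0.93 ± 0.18 (SE, edgeR adjusted p = 0.00153), and Gstm1, a glutathione transferase, was lower at -0.57 ± 0.11 (SE, edgeR adjusted p = 0.0014). Metallothionein and zinc transport genes were 3 of 8 higher and 1 lower, beside 13.1% and 9.25% over all genes. Their median was -0.15, and members ranged from -1.74 to 1.93. Metallothionein Mt1 rose by 1.73 ± 0.20 (SE, edgeR adjusted p = 2.93e-05) and the zinc importer Slc39a14 by 1.70 ± 0.17 (SE, edgeR adjusted p = 8.55e-06).

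Of 21 cholesterol synthesis genes, 16 were lower than in Control and 0 higher, with a median of -0.46. Lss, which closes the sterol rings, had 45.7, 43.6 and 47.6 CPM in SNX-5422+CEES skin, 65.6, 50.2 and 62.2 CPM in CEES skin and 80.9, 87.3 and 83.5 CPM in Control skin, at -0.88 ± 0.095 (SE, edgeR adjusted p = 1.46e-05) against Control and -0.38 ± 0.095 (SE, edgeR adjusted p = 0.0241) against CEES. The call against CEES was lost when any 1 SNX-5422+CEES library was left out (adjusted p = 0.0545 without 1, 0.0982 without 2 and 0.0575 without 3) and without CEES 1 (0.121) or 3 (0.0971). Hsd17b7, a reductase of the same pathway, was lower than in Control at -0.95 ± 0.12 (SE, edgeR adjusted p = 5.93e-05). Hmgcs1, whose promoter is printed above, had 118, 103 and 110.3 CPM in SNX-5422+CEES skin, 184, 113 and 199 CPM in CEES skin and 159.9, 211 and 187 CPM in Control skin, at -0.75 ± 0.16 (SE, edgeR adjusted p = 0.00276) against Control. Insig1, which holds the sterol sensor in the endoplasmic reticulum and was chosen after its values were seen, had 20.8, 22.8 and 24.96 CPM in SNX-5422+CEES skin, 40.4, 33.8 and 41.7 CPM in CEES skin and 33.2, 44.3 and 40.5 CPM in Control skin, below both other groups, at -0.76 ± 0.13 (SE, edgeR adjusted p = 0.0025) against CEES. Against CEES 7 members were lower and 0 higher, 3 without SNX-5422+CEES 2 or 3 or CEES 3, 2 without CEES 1 and 12 under total-count scaling. CEES against Control had 1 higher and 5 lower.

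Sebaceous gland and surface lipid genes were 11 of 18 lower and 0 higher, with a median of -0.77, and 7 lower without SNX-5422+CEES 2. Elovl6, which extends fatty acids, had 155, 110.2 and 124 CPM in SNX-5422+CEES skin, against 448, 828 and 562 CPM in Control skin, at -2.24 ± 0.30 (SE, edgeR adjusted p = 7.4e-05). Scd1, which desaturates them, had 819.6, 479 and 593 CPM in SNX-5422+CEES skin, against 1562, 1962 and 1612 CPM in Control skin, at -1.44 ± 0.23 (SE, edgeR adjusted p = 0.000381). The groups did not overlap in either gene. Soat1, which esterifies cholesterol, was lower at -0.88 ± 0.16 (SE, edgeR adjusted p = 0.000887). Awat1, a wax synthase, was below both other groups, at -0.87 ± 0.28 (SE, edgeR adjusted p = 0.0361) against Control and -1.70 ± 0.28 (SE, edgeR adjusted p = 0.00235) against CEES, with 10.3, 7.51 and 9.89 CPM in SNX-5422+CEES skin, 38.1, 18.6 and 33.3 CPM in CEES skin and 14.2, 19.1 and 17.5 CPM in Control skin. Its call against Control was lost without SNX-5422+CEES 2 (adjusted p = 0.14) or 3 (0.0796), without Control 2 (0.0861) or 3 (0.0928) and with total counts (0.051). Against CEES 7 members were lower, which became 3 without SNX-5422+CEES 2, 4 without CEES 3, 12 without CEES 2 and 13 with no filter. CEES against Control had 3 higher and 3 lower. Apoe, a lipid carrier, and Fcgbp, a mucin-like protein, were among the 5 largest falls in CPM, at -0.90 ± 0.14 (SE, edgeR adjusted p = 0.000242) and -1.68 ± 0.25 (SE, edgeR adjusted p = 0.00022).

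Skeletal muscle lies under the dermis, and its transcripts stood near Control levels. Of 19 contractile genes 2 were higher and 0 lower, beside 13.1% and 9.25% over all genes, with a median of 0.037 that ranged from -0.21 to 0.30 over the alternatives and changed sign. Ttn, the giant sarcomere spring, had 40789.7, 54380.1 and 46007 CPM in SNX-5422+CEES skin, 22407, 20518 and 21782 CPM in CEES skin and 42891, 77061 and 50967 CPM in Control skin. SNX-5422+CEES and Control overlapped and CEES lay below both, at -0.28 ± 0.18 (SE, edgeR adjusted p = 0.296) against Control and 1.13 ± 0.18 (SE, edgeR adjusted p = 0.00192) against CEES. Actn2 was raised by 0.76 ± 0.11 (SE, edgeR adjusted p = 0.000205) and Des, the muscle intermediate filament, by 0.53 ± 0.14 (SE, edgeR adjusted p = 0.012). Des lost its call without SNX-5422+CEES 2 (adjusted p = 0.0702), Control 1 (0.062) or Control 3 (0.0636). Against CEES 17 members were higher, 10 without SNX-5422+CEES 2 or 3 and 11 without CEES 2, and CEES against Control had 16 lower. Of 10 mitochondrially encoded genes, 6 were also higher than in CEES, while 1, mt-Nd6, was lower than in Control (log2 fold change -0.86 ± 0.18, edgeR adjusted p = 0.00301). The count of 6 fell to 3 without SNX-5422+CEES 1, 1 without SNX-5422+CEES 2 or CEES 1 and 0 without CEES 3. The part of the muscle share in this was not tested.

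The list of embryonic and stress genes of muscle, which also holds Mt1, had 11 of 20 higher and 0 lower, with a median of 1.25. Myh8 (ENSMUSG00000055775), the perinatal myosin heavy chain of regenerating fibres, had 27.2, 32.1 and 30.5 CPM in SNX-5422+CEES skin, 5.77, 12.8 and 6.78 CPM in CEES skin and 5.30, 5.48 and 5.48 CPM in Control skin. SNX-5422+CEES lay above both other groups, at 2.46 ± 0.22 (SE, edgeR adjusted p = 3.85e-06) against Control and 1.82 ± 0.21 (SE, edgeR adjusted p = 0.000232) against CEES. Myh3, the embryonic myosin, had 3.71, 8.06 and 5.84 CPM in SNX-5422+CEES skin, 0.218, 2.16 and 0.357 CPM in CEES skin and 0.428, 0.418 and 0.195 CPM in Control skin, at 4.12 ± 0.65 (SE, edgeR adjusted p = 0.000301) against Control and 2.66 ± 0.57 (SE, edgeR adjusted p = 0.00975) against CEES, and CEES 2 was the highest of its group. Without CEES 2 the difference from CEES was 4.33. The stretch-response gene Ankrd1 had 24.2, 21.5 and 20.5 CPM in SNX-5422+CEES skin, 94.3, 84.5 and 98.2 CPM in CEES skin and 12.3, 3.90 and 8.08 CPM in Control skin, lying between the other groups, at 1.46 ± 0.26 (SE, edgeR adjusted p = 0.000717) against Control and -2.06 ± 0.24 (SE, edgeR adjusted p = 0.00023) against CEES. Its relative Ankrd2 rose by 2.503 ± 0.25 (SE, edgeR adjusted p = 8.76e-06) against Control and its difference from CEES was -0.53 ± 0.23 (SE, edgeR adjusted p = 0.204), which was called with only the 2 groups in the fit (adjusted p = 0.0266) or no filter (0.00936).

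Genes of islet and acinar cells were 19 of 19 lower than in Control, with a median of -4.06. Ins2 had 10.8, 25.7 and 64.8 CPM in SNX-5422+CEES skin, 2.97, 4.24 and 5.49 CPM in CEES skin and 1222, 447 and 431 CPM in Control skin. The 3 groups did not overlap, CEES skin being lowest, and Ins2 stood at -4.37 ± 0.54 (SE, edgeR adjusted p = 3.83e-05) against Control and 2.99 ± 0.56 (SE, edgeR adjusted p = 0.00484) against CEES. Gcg, the glucagon gene, had 1.69, 7.24 and 19.2 CPM in SNX-5422+CEES skin, 0.524, 0.897 and 0.580 CPM in CEES skin and 277, 96.1 and 92.5 CPM in Control skin. All pancreatic genes together made up 0.00381 to 0.0196% of gene counts in SNX-5422+CEES skin, 0.00154 to 0.00214% in CEES skin and 0.110 to 0.369% in Control skin. Their presence in skin libraries goes against the labelled tissue, and how it arose was not tested. Against CEES 5 were higher, 10 without SNX-5422+CEES 1, 2 without SNX-5422+CEES 3, 3 without any 1 CEES library and 15 with DESeq2 or no filter. The 10 largest falls by fold that the naming rule gave were G6pc2, Zg16, Pyy, Pcsk1n, Gp2, Pnliprp1, Scg2, Ins2, Iapp and Ins1, from -5.05 for G6pc2, the islet glucose-6-phosphatase, to -4.36 for Ins1.

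**Figure D5:**
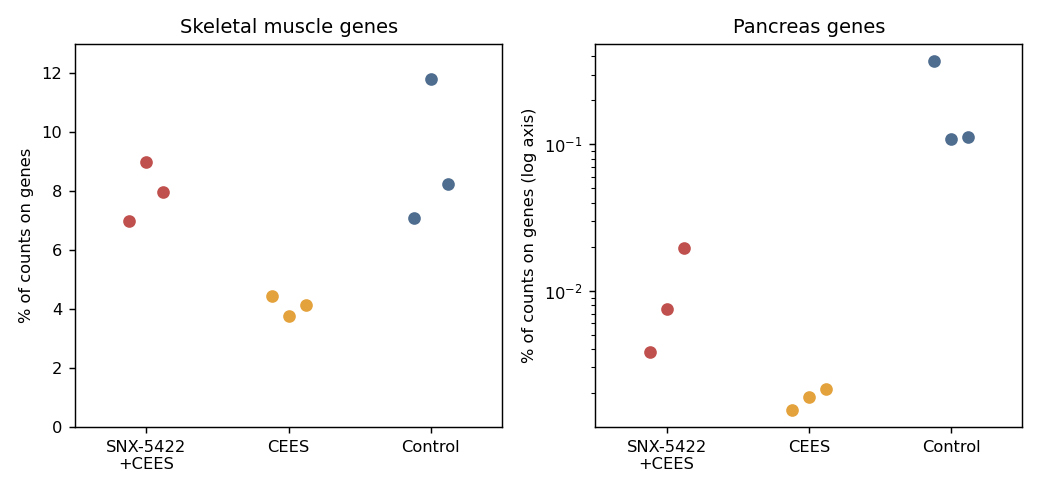
Share of gene counts (%) from skeletal muscle genes (left, linear axis) and pancreas genes (right, log axis) in each library of the SNX-5422+CEES, CEES and Control groups. Muscle shares of SNX-5422+CEES (6.99 to 9.00%) overlap those of Control, and pancreas shares are at most 0.0196% in SNX-5422+CEES against at least 0.110% in Control.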

How the data were processed

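The deposited values were raw counts per gene in 1 table of 15 libraries, made by the authors. The labels' protocols name an Aurum kit for extraction and Ribo-Zero Gold for removal of ribosomal RNA. Per the submitters' processing notes, bcl2fastq 2.18.0.12, Trim Galore 0.6.7, STAR 2.7.10a, HTSeq 2.0.2 and GRCm39 were used. The annotation release and strand setting were not given in the sources used here. Overlapping genes and near-identical copies (such as Ins1 and Ins2, Hspa1a and Hspa1b or the Lce3 and Krt6 genes) are therefore uncertain. The RefSeq promoter windows are of another build (GRCm38.p6), so no other coordinates are given.

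The 5 summary entries were removed first, and the one for reads on no gene held 35.2 to 46.9% of a library. Symbols were matched by identifier for 52093 of 53700 genes. In R 4.3.3, an edgeR 4.0.16 quasi-likelihood fit of all 15 libraries had a mean per group, TMM scaling, filterByExpr and 10 residual degrees of freedom, and tested 22529 genes. Calls were made at a Benjamini-Hochberg adjusted p under 0.05 over all genes tested. Fold changes are on the log2 scale, and each standard error is the fold change divided by the root of its F statistic. The code was tested on simulated data. Alternatives were other scalings, filters, DESeq2 1.42.0 (Wald test), a fit of only the groups compared, and leaving out each library.

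The members and the 46 gene lists were chosen with earlier results of these data known. Genes were named by rule as the 10 largest rises and falls by fold, the 5 largest by CPM, the 5 largest differences from CEES for each combination of directions, up to 3 members of each list per direction with the smallest p, members that were not called, and 8 HSP90 and heat shock genes. Those named by fold, CPM or difference from CEES were called, averaged at least 5 CPM in a group, and did not overlap between SNX-5422+CEES and Control. Other genes are marked as chosen after their values were seen, and 1 gene that the rule gave is not reported here.

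Since every SNX-5422+CEES title ends in the number 1, those libraries took their numbers from accession order. The labels do not say that samples came from separate animals, so p-values cover only sample-to-sample spread, possibly technical. Replicates differed by a chi-square per degree of freedom of 8.39 to 41.6, so no pair looked like a duplicate. Bounds and counts cover counting error only, since reads are not independent molecules.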

Additional observations from a re-analysis of the deposited data

How the results depend on the processing

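Over 14 alternative settings, the 194 named genes in SNX-5422+CEES minus Control gave 2713 values. None changed direction where the gene was called in the main fit or in the alternative. Changes of sign in genes called in neither were not counted. Of these values 157 lost their call and 4 gained it, and 153 genes neither lost nor gained a call in any setting. Of 644 list medians 25 moved beyond the spread between replicates, and the signs of the medians of the T cell, cornified layer, skeletal muscle and cytosolic ribosomal lists changed. The cause of each of the following shifts was not tested. Called genes numbered 3268 (without SNX-5422+CEES 2) to 5400 (without SNX-5422+CEES 1) when a library was left out, and those past 2-fold 1459 to 2248. Against CEES they numbered 806 to 1379, and in CEES minus Control 6169 to 7361. DESeq2's Wald test called 5322 genes against Control, 2022 against CEES and 7744 in CEES minus Control. A replicate block, possible for CEES minus Control without the SNX-5422+CEES libraries, gave 7086 calls. No paired analysis was possible for SNX-5422+CEES because its titles all carry the same number. With 3 samples a group and members near or below 1 CPM, a difference that missed the threshold was not detectable at this depth.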

Other observations

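Signalling genes outside the main groups also differed from Control skin. Wnt and hedgehog genes were 2 of 17 higher and 8 lower in SNX-5422+CEES than in Control, beside 13.1% and 9.25% over all genes. Their median was -0.54, and 3 were lower without SNX-5422+CEES 2 or 3 or Control 3. Axin2, a feedback target of Wnt, had 28.5, 24.8 and 30.3 CPM in SNX-5422+CEES skin, 29.5, 19.05 and 27.3 CPM in CEES skin and 59.4, 54.97 and 59.2 CPM in Control skin, with SNX-5422+CEES overlapping CEES and lying below Control, at -1.06 ± 0.17 (SE, edgeR adjusted p = 0.0003). Wnt3 had 18.5, 19.2 and 19.7 CPM in SNX-5422+CEES skin, 8.22, 7.14 and 10.4 CPM in CEES skin and 34.9, 32.5 and 35.00 CPM in Control skin, so that SNX-5422+CEES lay between the other groups, at -0.84 ± 0.17 (SE, edgeR adjusted p = 0.00243) against Control and 1.15 ± 0.18 (SE, edgeR adjusted p = 0.00164) against CEES. Immediate early genes were 3 of 18 higher and 5 lower, beside 13.1% and 9.25% over all genes. The lower members were led by Jun (log2 fold change -0.60 ± 0.073, edgeR adjusted p = 3.76e-05), Egr2 (log2 fold change -1.09 ± 0.15, edgeR adjusted p = 0.000114) and Egr3 (log2 fold change -0.68 ± 0.11, edgeR adjusted p = 0.000398), and the number higher was 0 without SNX-5422+CEES 2 or 3 or Control 1. NF-kB feedback genes were 7 of 16 higher and 1 lower, with Socs3, a brake on cytokine signalling, at 1.62 ± 0.16 (SE, edgeR adjusted p = 8.76e-06).

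Glucocorticoid receptor targets were 9 of 14 higher and 0 lower, with a median of 0.60. Fkbp5, a cochaperone of the receptor, had 68.99, 74.7 and 79.4 CPM in SNX-5422+CEES skin, 67.3, 64.9 and 77.4 CPM in CEES skin and 30.8, 38.6 and 37.3 CPM in Control skin, at 1.06 ± 0.11 (SE, edgeR adjusted p = 1.24e-05) against Control and 0.09 ± 0.11 (SE, edgeR adjusted p = 0.733) against CEES. Cell death genes were 8 of 19 higher and 1 lower, with the necroptosis effector Mlkl at 1.39 ± 0.15 (SE, edgeR adjusted p = 1.88e-05) and its kinase Ripk3 at 1.54 ± 0.21 (SE, edgeR adjusted p = 9.22e-05). Hypoxia and glycolysis genes were 9 of 19 higher and 0 lower, and 15 without SNX-5422+CEES 1. Proteasome subunits were 11 of 22 higher, and 4 without SNX-5422+CEES 2 or Control 3. Ptgs2, the inducible prostaglandin synthase, had 5.19, 9.74 and 10.8 CPM in SNX-5422+CEES skin, 33.1, 42.7 and 29.3 CPM in CEES skin and 6.53, 4.88 and 7.17 CPM in Control skin, at 0.47 ± 0.26 (SE, edgeR adjusted p = 0.21) against Control and -2.03 ± 0.25 (SE, edgeR adjusted p = 0.00026) against CEES. Epidermal kallikreins, with calls near the share over all genes (13.1% higher and 9.25% lower), were 2 of 12 higher, Klk6 (log2 fold change 1.83 ± 0.16, edgeR adjusted p = 2.91e-06) and Klk13 (log2 fold change 1.92 ± 0.34, edgeR adjusted p = 0.000821), and 2 lower, Klk12 (log2 fold change -1.09 ± 0.33, edgeR adjusted p = 0.0275) and Klk11 (log2 fold change -0.61 ± 0.19, edgeR adjusted p = 0.0302), and 0 were lower without SNX-5422+CEES 3, Control 1 or Control 3. Adipocyte genes were 4 of 15 higher and 1 lower, and over all genes 13.1% were higher and 9.25% lower, with Lep, the leptin gene, at 1.46 ± 0.35 (SE, edgeR adjusted p = 0.00675).

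Circadian clock genes were 2 of 15 higher and 5 lower in SNX-5422+CEES than in Control, beside 13.1% and 9.25% over all genes, with a median of -0.33. Nr1d1, a repressor of the clock loop, had 68.1, 80.6 and 68.00 CPM in SNX-5422+CEES skin, 47.9, 42.2 and 38.9 CPM in CEES skin and 103, 86.01 and 89.7 CPM in Control skin, at -0.36 ± 0.11 (SE, edgeR adjusted p = 0.0233) against Control, and this call was lost without SNX-5422+CEES 1 (adjusted p = 0.0678) or 3 (0.0996) or Control 1 (0.108). All samples were labelled with the same time after application, and the hour of collection was not analysed here. Prostaglandin and leukotriene enzymes were 4 of 17 higher and 1 lower, beside 13.1% and 9.25% over all genes. They were led by Ptges, the terminal synthase of prostaglandin E2, with 75.8, 138 and 122.6 CPM in SNX-5422+CEES skin, against 53.7, 57.2 and 56.8 CPM in Control skin, at 1.002 ± 0.17 (SE, edgeR adjusted p = 0.000518). The mast cell protease Tpsb2 was higher, at 1.81 ± 0.46 (SE, edgeR adjusted p = 0.00971), with adjusted p = 0.0515 without SNX-5422+CEES 2. Actc1, the cardiac actin that regenerating muscle also makes, had 3.91, 6.53 and 4.93 CPM in SNX-5422+CEES skin, 0.175, 2.12 and 0.268 CPM in CEES skin and 0.589, 1.16 and 0.422 CPM in Control skin, at 2.84 ± 0.59 (SE, edgeR adjusted p = 0.00247) against Control and 2.55 ± 0.57 (SE, edgeR adjusted p = 0.0127) against CEES, which was 4.50 without CEES 2 and lost its call without CEES 3 (adjusted p = 0.0557).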
